A study of Mus musculus with 4 samples.

Results

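The 10 genes described here encode cytokines of the TNF and IL-1 families, feedback regulators of the transcription factor NF-kB, and NF-kB target genes of cell adhesion and prostaglandin synthesis: Tnf, Il1a, Il1b, Nfkbia, Nfkbiz, Tnfaip3, Relb, Icam1, Ptgs2 and Tnfaip2. They were taken as a named list, matched by symbol to Ensembl identifiers, and all 10 were found among the 52636 genes of the deposited tables. RNA was measured by bulk RNA-seq in cells of the corpus callosum, a white matter tract of the forebrain, from Mertk-knockout mice fed chow with 0.2% cuprizone for 4 weeks. Cuprizone is a copper chelator that kills oligodendrocytes, and Mertk encodes a receptor through which phagocytes take up dying cells. Cells that stained for AnnexinV, a protein that binds phosphatidylserine on the surface of dying cells, were compared with AnnexinV-negative cells of the same tissue, with 2 libraries in each group. All 4 libraries carry the same knockout genotype and the same cuprizone feeding, so neither genotype nor cuprizone is compared. Reads on Mertk came to 62.6 and 53.6 RPKM in the AnnexinV-positive libraries, against 18.8 and 29.9 RPKM in the AnnexinV-negative libraries, and since the labels do not say which part of the gene is deleted, this does not check the genotype. The labels give no age, pooling or origin of the replicates, so the p-values reflect the spread between these libraries alone, which may be technical.

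TNF and IL-1 bind receptors whose adaptors activate the IkB kinases. These kinases mark IkB proteins for degradation, which frees NF-kB dimers to enter the nucleus. NF-kB then induces its own inhibitors, among them Nfkbia and Tnfaip3, so that the response limits itself. In the brain, microglia, the resident macrophages, are a main source of TNF and IL-1. Levels are given as RPKM (read numbers divided by gene length and sequencing depth), as the authors deposited them. Changes are log2 fold changes of RPKM + 0.1, AnnexinV-positive minus AnnexinV-negative, from limma, and a gene was called when its Benjamini-Hochberg adjusted p over all 10927 genes tested was under 0.05.

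Sequences are shown first for the 3 genes that hold a match to the NF-kB binding consensus in the 250 bases before a RefSeq start. Of the 10 genes, 8 had a RefSeq promoter entry (build GRCm38.p6), covering 9 start sites, and these bases were searched on both strands for the 10-letter kB consensus. Tnfaip3, Nfkbia and Tnfaip2 held a match, 3 of 8 genes (37.5%), against 2225 of 27025 genes in the whole table (8.23%). Capitals mark the matched letters in the sequences, the whole window for Nfkbia and 30 bases around each match for the other genes, each written 5' to 3' on the strand of its gene.
Nfkbia (chr12:55492648-55492897, minus strand): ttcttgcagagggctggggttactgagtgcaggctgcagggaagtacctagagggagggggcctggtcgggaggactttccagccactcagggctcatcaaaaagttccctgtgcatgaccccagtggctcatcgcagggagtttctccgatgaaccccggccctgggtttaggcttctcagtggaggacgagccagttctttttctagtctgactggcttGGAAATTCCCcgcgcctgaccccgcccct
Tnfaip3 (chr10:19015516-19015545, minus strand): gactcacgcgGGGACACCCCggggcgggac
Tnfaip3 (chr10:19015411-19015440, minus strand): gtgactggaatttccatcGGAAATCCCCct
Tnfaip2 (chr12:111442627-111442656, plus strand): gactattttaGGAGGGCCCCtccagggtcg
The match of Nfkbia lay 20 to 29 bases before its start, which is the same in RefSeq and in the GENCODE M21 gene model whose coordinates are given below. The RefSeq starts of Tnfaip2 and Tnfaip3 lie 192 and 247 bases inside the GENCODE genes, so their matches, 15 to 24 bases before the RefSeq start of Tnfaip2 and 3 to 12 and 116 to 125 bases before that of Tnfaip3, fall within the GENCODE genes, from 168, 235 and 122 bases after the GENCODE start. The window of another RefSeq start of Tnfaip3 held no match. A match is a description of these letters, and binding was not measured. The windows of Tnf, Il1a, Il1b, Icam1 and Ptgs2 held no match, which says only that these letters are not in these windows. Nfkbiz and Relb had no entry in the table.

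Some of these messages carry at their other end the AU-rich element, a cluster of ATTTA units that is known to shorten the life of cytokine mRNAs. The nonamer TTATTTATT, its core, was found in the 3' untranslated region (GENCODE M21, GRCm38, 1 transcript a gene) of 4 of the 10 genes (40%), against 763 of 11627 protein-coding genes whose 3' untranslated region lies in the same range of lengths (6.56%). Tnf held 5 copies, and Ptgs2, Nfkbia and Tnfaip3 held 1 each. The 30 bases richest in the element are shown for these genes and for Il1b, with ATTTA units in capitals.
Tnf (chr17:35199679-35199708, minus strand): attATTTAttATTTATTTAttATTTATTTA
Ptgs2 (chr1:150105794-150105823, plus strand): ccatATTTATTTATTTAtgtgaagaATTTA
Tnfaip3 (chr10:19001754-19001783, minus strand): tttATTTAttatgaacttccaagttATTTA
Nfkbia (chr12:55489618-55489647, minus strand): acctaatgaaaggaccacgttttATTTAtt
Il1b (chr2:129364808-129364837, minus strand): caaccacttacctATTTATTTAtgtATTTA
Over the 3' untranslated regions of the 10 genes, ATTTA occurred 4.14 times per kilobase, against 1.91 times over the protein-coding genes of like length. It was most frequent in Tnf (10.5 times per kilobase), Il1b (8.71) and Ptgs2 (5.73), while Tnfaip2 (1.37) lay below that background. Relb had no ATTTA unit in a 3' untranslated region of 336 bases. mRNA stability was not measured.

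The libraries differed in reads in genes, in summed RPKM and in cell type markers. Reads in genes, estimated from the steps of the deposited values, numbered 67457000 and 60149000 in the AnnexinV-positive libraries and 50534000 and 43256000 in the AnnexinV-negative libraries. The 10 genes had between 2694 and 164967 reads each in a library, the fewest for Relb. A read in 1 kilobase stood for 0.01011 and 0.01162 RPKM in AnnexinV-positive libraries, against 0.008325 and 0.01032 RPKM in AnnexinV-negative libraries. These steps did not follow the reads in genes, so the RPKM were not scaled to those reads. Summed over all genes, the RPKM were 200348 and 217768 in AnnexinV-positive libraries, against 122944 and 120680 in AnnexinV-negative libraries. Summed over 15 markers of mature oligodendrocytes, the level was 104 and 88.2 RPKM in AnnexinV-positive libraries, against 1193 and 660.2 RPKM in AnnexinV-negative libraries. Summed over 14 markers of homeostatic microglia it was 5609 and 5577 RPKM in AnnexinV-positive libraries, against 2182 and 2678 RPKM in AnnexinV-negative libraries, and all 14 were called higher, with a median log2 fold change of 1.20. In bulk samples, fewer cells of a type and less RNA per cell cannot be told apart. Over all genes tested the median log2 fold change was 0.45 on the deposited scale, so each fold change below is to be read against that shift.

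All 10 genes were called higher in AnnexinV-positive cells, by 1.32 to 1.87 on the log2 scale with a median of 1.45. Of all genes tested, 30.8% were called higher. The groups did not overlap for any of the 10, which held in that direction for 60.9% of all genes tested. All 10 passed the filter on low values in every library. A log2 fold change of at least 1.5 with a call was reached by Tnfaip2, Il1a, Il1b and Tnf, and by 1.19% of all genes tested. Together the 10 genes took 1.76% and 1.42% of all RPKM in the AnnexinV-positive libraries, against 0.906% and 0.998% in the AnnexinV-negative libraries.

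**Figure D1:**
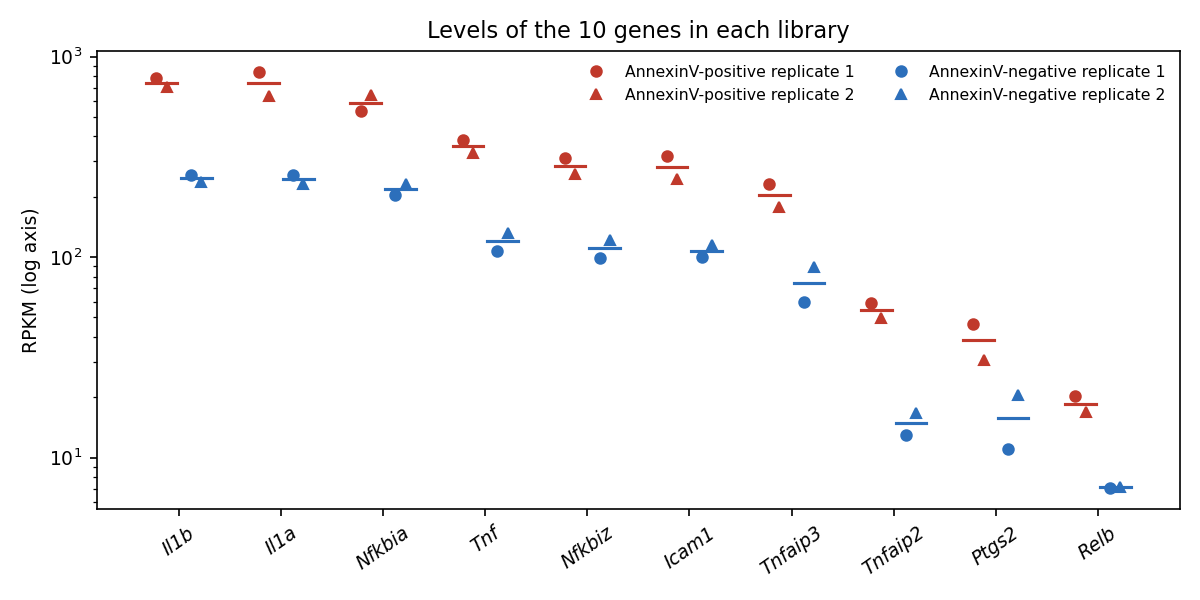
RPKM (log axis) of each of the 10 genes in the 4 libraries, AnnexinV-positive in red at the left of each pair and AnnexinV-negative in blue at its right; circles are replicate 1, triangles replicate 2, and bars the mean of 2 libraries. Every red point lies above both blue points of its gene, with the narrowest gap for Ptgs2, and Il1b and Il1a are the highest genes in both groups.

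The IL-1 cytokines were the most abundant of the set. Il1b, the secreted IL-1 that caspase-1 activates (chromosome 2, 129364570 to 129371139, minus strand, GRCm38), was at 783 and 702 RPKM in AnnexinV-positive libraries, against 257 and 238 RPKM in AnnexinV-negative libraries. Its lowest AnnexinV-positive value was 2.73 times its highest AnnexinV-negative value. Il1b rose by 1.58 on the log2 scale (95% interval 1.13 to 2.03, SE 0.19, limma adjusted p 0.00221). Among 21896 protein-coding genes ranked by RPKM, Il1b stood at rank 25 and 28 in AnnexinV-positive libraries, against 36 and 37 in AnnexinV-negative libraries.

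Il1a, its neighbour on the same strand and an alarm cytokine that is active without cleavage (chromosome 2, 129299610 to 129309972), was at 842 and 638 RPKM in AnnexinV-positive libraries, against 255 and 233 RPKM in AnnexinV-negative libraries. The AnnexinV-positive libraries differed from each other by 0.40 on the log2 scale, and both lay above the other group. Il1a rose by 1.59 on the log2 scale (SE 0.21, limma adjusted p 0.00317). Within each library the RPKM of Il1a was 1.08 and 0.909 times that of Il1b in AnnexinV-positive cells, against 0.995 and 0.977 times in AnnexinV-negative cells, so the order of this pair did not differ beyond its spread. Il1a shares 222 exon bases (11.2% of its exon length) with the opposite-strand transcript Gm14023. The library kit does not keep strand, so the reads of such pairs cannot be told apart, and Gm14023 was at 25.8 and 29.3 RPKM in AnnexinV-positive libraries, against 7.57 and 11.6 RPKM in AnnexinV-negative libraries.

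Tnf, the founding cytokine of its family (chromosome 17, 35199381 to 35202007, minus strand), was at 383 and 332 RPKM in AnnexinV-positive libraries, against 108 and 132 RPKM in AnnexinV-negative libraries. Both AnnexinV-positive values were at least 2.52 times the highest AnnexinV-negative value. Tnf rose by 1.58 on the log2 scale (SE 0.20, limma adjusted p 0.00259). Within a library the RPKM of Tnf was 0.489 and 0.472 times that of Il1b in AnnexinV-positive cells, against 0.420 and 0.553 times in AnnexinV-negative cells, ranges that overlap. The related lymphotoxins Lta and Ltb, which adjoin Tnf in the genome and are known from lymphocytes, stayed at or under 0.671 RPKM in every library and were not tested.

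The feedback genes ran from Nfkbia, whose levels overlapped those of Il1a in AnnexinV-positive libraries alone, down to Relb, the lowest of the set. Nfkbia, the IkB protein that retains NF-kB in the cytoplasm and is resynthesized under its control (chromosome 12, 55489410 to 55492647, minus strand), was at 537 and 643 RPKM in AnnexinV-positive libraries, against 204 and 231 RPKM in AnnexinV-negative libraries. Its highest AnnexinV-positive value came from replicate 2, while for the other 9 genes it came from replicate 1. Nfkbia rose by 1.44 on the log2 scale (SE 0.20, limma adjusted p 0.00340). This is the gene with the kB match 20 to 29 bases before its start.

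Nfkbiz, a nuclear IkB protein that helps NF-kB switch on secondary response genes (chromosome 16, 55811375 to 55838899, minus strand), was at 312 and 259 RPKM in AnnexinV-positive libraries, against 98.8 and 122 RPKM in AnnexinV-negative libraries. The groups were apart by 2.13 times at their nearest values. The log2 fold change was 1.37 (SE 0.20, limma adjusted p 0.00410). Per library the RPKM of Nfkbiz was 0.581 and 0.403 times that of Nfkbia in AnnexinV-positive cells, against 0.486 and 0.527 times in AnnexinV-negative cells, ranges that overlap.

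Tnfaip3, a ubiquitin-editing enzyme that shuts off TNF and IL-1 signalling (chromosome 10, 19000910 to 19015657, minus strand), was at 231 and 177 RPKM in AnnexinV-positive libraries, against 59.5 and 89.3 RPKM in AnnexinV-negative libraries. The AnnexinV-negative libraries differed from each other by 0.59 on the log2 scale, and the groups were apart by 1.99 times at their nearest values. Tnfaip3 rose by 1.47 on the log2 scale (SE 0.25, limma adjusted p 0.00615). Relb, a subunit of the non-canonical NF-kB pathway whose gene is itself induced by NF-kB (chromosome 7, 19606217 to 19629438, minus strand), was the lowest of the set at 20.3 and 16.9 RPKM in AnnexinV-positive libraries, against 7.05 and 7.16 RPKM in AnnexinV-negative libraries. Its log2 fold change was 1.37 (SE 0.18, limma adjusted p 0.00316). The RPKM of Relb was 0.333 and 0.329 times that of Rela, the main canonical subunit, in AnnexinV-positive cells, against 0.250 and 0.246 times in AnnexinV-negative cells, and these ratios within a library do not depend on its scale. Relative to Nfkb2, the partner of Relb in that pathway, the RPKM of Relb was 0.961 and 0.875 times in AnnexinV-positive cells, against 0.924 and 0.764 times in AnnexinV-negative cells, ranges that overlap. The difference in these ratios was not tested.

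Of the effector genes, Icam1, the adhesion molecule that leukocyte integrins bind (chromosome 9, 21015985 to 21028817, plus strand), was at 319 and 245 RPKM in AnnexinV-positive libraries, against 100.4 and 115 RPKM in AnnexinV-negative libraries. Icam1 rose by 1.38 on the log2 scale (SE 0.21, limma adjusted p 0.00424), and the nearest values of the groups differed 2.13 times. It shares 511 exon bases with the opposite-strand transcript Gm47079, which was at or under 0.258 RPKM in every library. Icam2, a relative known from endothelium, was at 1.29 and 1.69 RPKM in AnnexinV-positive libraries, against 2.11 and 1.48 RPKM in AnnexinV-negative libraries. Icam2 was not called on the deposited scale (limma adjusted p 0.482). It was called lower with equal RPKM sums and with the microglia markers set equal in all libraries (-1.42, limma adjusted p 0.0174).

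Tnfaip2, a TNF-induced protein of cell protrusions and membrane tubes (chromosome 12, 111442469 to 111455018, plus strand), had the largest fold change of the 10. It was at 58.8 and 49.8 RPKM in AnnexinV-positive libraries, against 13.004 and 16.6 RPKM in AnnexinV-negative libraries. The groups were apart by 2.99 times at their nearest values, the widest gap of the 10. The log2 fold change was 1.87 (SE 0.20, limma adjusted p 0.00156), rank 15 among all genes tested. It shares 314 exon bases with the opposite-strand transcript Gm40578, which was at or under 1.27 RPKM.

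Ptgs2, the inducible cyclooxygenase that makes prostaglandin precursors (chromosome 1, 150100031 to 150108227, plus strand), was at 46.5 and 30.7 RPKM in AnnexinV-positive libraries, against 11.0 and 20.6 RPKM in AnnexinV-negative libraries. It varied most within the groups, by 0.60 on the log2 scale between AnnexinV-positive and by 0.91 between AnnexinV-negative libraries, and its nearest values differed 1.49 times. The log2 fold change was 1.32 (SE 0.34, limma adjusted p 0.0213). Without AnnexinV-positive replicate 1 it was 1.02 and was not called (limma adjusted p 0.0659), and without AnnexinV-negative replicate 1 it was 0.87 (limma adjusted p 0.0333). The constitutive cyclooxygenase Ptgs1 was at 73.1 and 77.5 RPKM in AnnexinV-positive libraries, against 28.4 and 41.2 RPKM in AnnexinV-negative libraries, and so lay above Ptgs2 in all 4 libraries.

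The order of the levels was nearly the same in both groups. By mean RPKM in AnnexinV-positive cells it ran Il1b, Il1a, Nfkbia, Tnf, Nfkbiz, Icam1, Tnfaip3, Tnfaip2, Ptgs2 and Relb, and in AnnexinV-negative cells Tnfaip2 and Ptgs2 changed places. In AnnexinV-positive cells the neighbours Il1b and Il1a, Il1a and Nfkbia, and Nfkbiz and Icam1 overlapped between libraries, and in AnnexinV-negative cells Il1b and Il1a, Tnf and Nfkbiz, Nfkbiz and Icam1, and Ptgs2 and Tnfaip2. The other neighbours did not overlap. Tnfaip2 had 1.67% and 1.61% of the summed RPKM of the 10 genes in AnnexinV-positive libraries, against 1.17% and 1.38% in AnnexinV-negative libraries. The 3 cytokines together took 1.002% and 0.767% of all RPKM in AnnexinV-positive libraries, against 0.504% and 0.499% in AnnexinV-negative libraries.

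How many of the 10 were called depended on the scale, and the markers of microglia were also higher in AnnexinV-positive libraries on the deposited scale. With each library centred on the median gene, 9 of the 10 were called higher, against 10.4% of all genes tested, and Ptgs2 was not (log2 fold change 1.01, limma adjusted p 0.0829). With every library set to the same RPKM sum, 5 were called higher, namely Tnf, Il1a, Il1b, Nfkbia and Tnfaip2, against 1.04% of all genes tested. All 10 fold changes remained positive there, between 0.55 and 1.10, while the median of all genes was -0.31. As shares of all RPKM, the groups did not overlap for 9 of the 10, with AnnexinV-positive higher in each, and for 12.2% of all genes tested, while those of Ptgs2 overlapped.

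With the mean of the 14 microglia markers set equal in all libraries, 1 of the 10 was called higher, against 0.119% of all genes tested, and the median of the 10 was 0.28. That gene was Tnfaip2, at 0.70 (95% interval 0.25 to 1.14, SE 0.18, limma adjusted p 0.0240). Relative to the geometric mean of the markers its level was 0.294 and 0.255 in AnnexinV-positive cells, against 0.163 and 0.175 in AnnexinV-negative cells. The call was lost without AnnexinV-positive replicate 1 (0.59, limma adjusted p 0.220) and without replicate 2 (0.80, limma adjusted p 0.104), where the lone sample is assumed to vary like the other group. These values without a library on the microglia-centred scale were chosen after seeing the data.

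Tnf relative to the markers was 1.91 and 1.69 in AnnexinV-positive cells, against 1.34 and 1.38 in AnnexinV-negative cells, a difference of 0.40 on the log2 scale (95% interval -0.03 to 0.84) that was not called. Il1b relative to the markers was 3.90 and 3.59, against 3.19 and 2.49 in AnnexinV-negative cells, a difference of 0.41 on the log2 scale (95% interval -0.10 to 0.91). Il1a was at 0.41 (95% interval -0.16 to 0.98), and Nfkbia at 0.26 (95% interval -0.22 to 0.74). The intervals of Nfkbiz, Tnfaip3, Icam1, Ptgs2 and Relb also held 0, with log2 fold changes of 0.15 to 0.30, and reached up to 0.65 to 0.88. On this scale the groups did not overlap for 7 of the 10 genes, with AnnexinV-positive higher in each, as for 2.32% of all genes tested, and they overlapped for Tnfaip3, Ptgs2 and Relb. These intervals do not show that the genes kept step with the microglia markers. Microglia are known to lower such markers when activated, and whether they did so here was not tested.

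**Figure D2:**
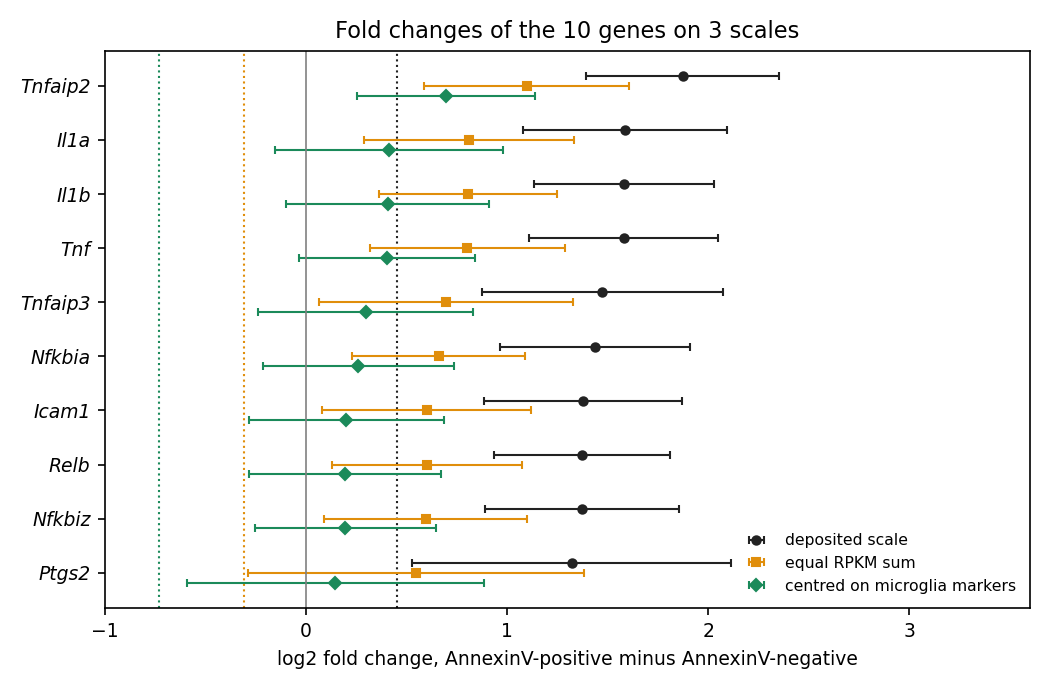
Log2 fold changes (points) with 95% limma intervals (bars) of the 10 genes on 3 scales, the deposited one in black, the one with equal RPKM sums in orange and the one centred on 14 microglia markers in green; dotted lines are the median of all genes tested on each scale, at 0.45, -0.31 and -0.73. Every point lies right of the dotted line of its colour, and on the microglia-centred scale the interval of Tnfaip2 alone among the 10 clears 0.

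**Figure D3:**
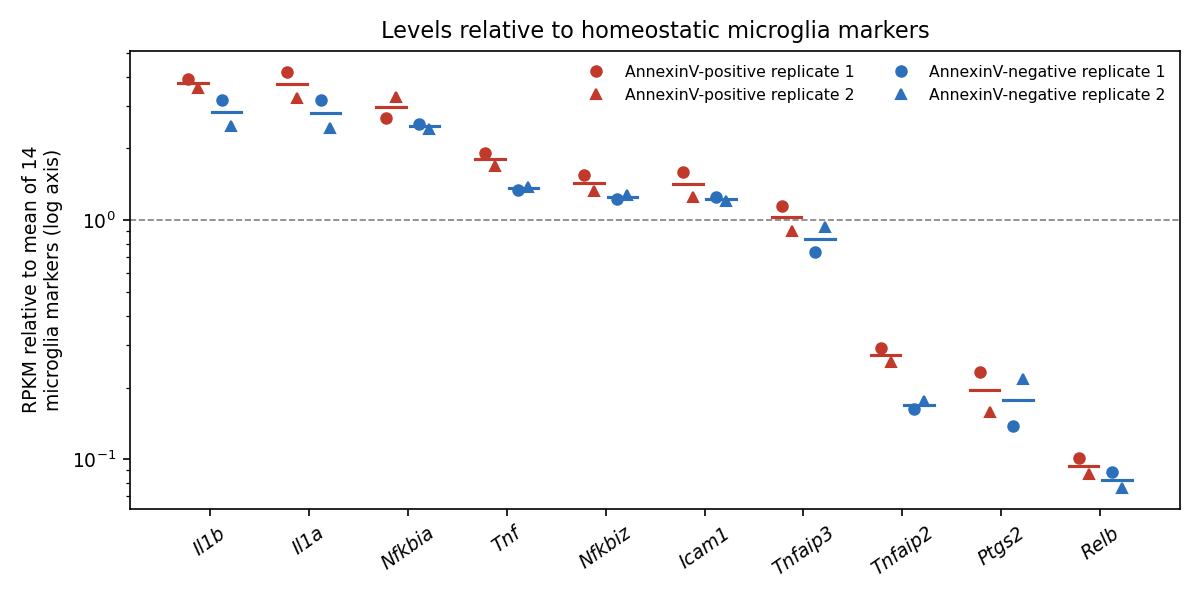
Level of each of the 10 genes in the 4 libraries relative to the geometric mean of 14 homeostatic microglia markers (log axis, dashed line at 1), AnnexinV-positive in red at the left and AnnexinV-negative in blue at the right; circles are replicate 1, triangles replicate 2, and bars the mean of 2 libraries. Red and blue points overlap for Tnfaip3, Ptgs2 and Relb, and Tnfaip2 shows 0.294 and 0.255 in AnnexinV-positive cells against 0.163 and 0.175 in AnnexinV-negative cells.

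Markers of other immune cells were low beside those of microglia given above. Summed over 9 neutrophil markers the level was 1.17 and 1.17 RPKM in AnnexinV-positive libraries, against 17.1 and 8.31 RPKM in AnnexinV-negative libraries, and the neutrophil genes S100a9 and S100a8 fell by 4.54 and 4.52 on the log2 scale (limma adjusted p 6.45e-04 and 0.00324). Summed over 7 monocyte markers it was 28.0 and 32.3 RPKM, against 16.5 and 36.6 RPKM in AnnexinV-negative libraries, most of it from Fn1, which is also made outside monocytes, and Plac8 stayed at or under 2.09 RPKM. Over 10 markers of border macrophages it was 18.1 and 17.9 RPKM, against 7.08 and 5.88 RPKM in AnnexinV-negative libraries, led by Pf4 and Ms4a7. Over 5 B cell markers it was 73.6 and 80.3 RPKM, against 33.3 and 37.1 RPKM in AnnexinV-negative libraries, and Cd79b and Ighm were called higher. The neutrophil granule gene Camp was at 0 in both AnnexinV-positive libraries, and none of these markers was at 0 in all 4 libraries. Their part in the levels of the 10 genes was not tested.

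Outside the 10 genes, 10 lists of the same pathways and of neighbouring processes held 103 genes, of which 87 were tested, 65 were called higher and 3 lower, with a median of 1.10. These lists were drawn up from textbook knowledge with earlier results in view. With equal RPKM sums 4 were called higher and 8 lower, and centred on the microglia markers 1 was higher and 17 lower. The medians of the ligand, receptor and adaptor lists and of the IkB kinases turned negative on the microglia-centred scale (-0.22, -0.21, -0.45 and -0.48), as did those of the prostaglandin, Icam1 partner and dissociation lists (-0.08, -0.01 and -0.12). Those of the adaptors and the IkB kinases were also negative with equal RPKM sums (-0.04 and -0.08), while the subunits, inhibitors and targets lay at 0.06 to 0.07 on the microglia-centred scale. The median of all genes tested was -0.31 with equal RPKM sums and -0.73 on the microglia-centred scale, below each of these list medians. Of all genes tested, 30.8% were called higher on the deposited scale, 1.04% with equal RPKM sums and 0.119% centred on the microglia markers. The shares called lower were 9.26%, 19.3% and 50.7% on these scales. The counts of each list below are to be read against these shares.

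**Figure D4:**
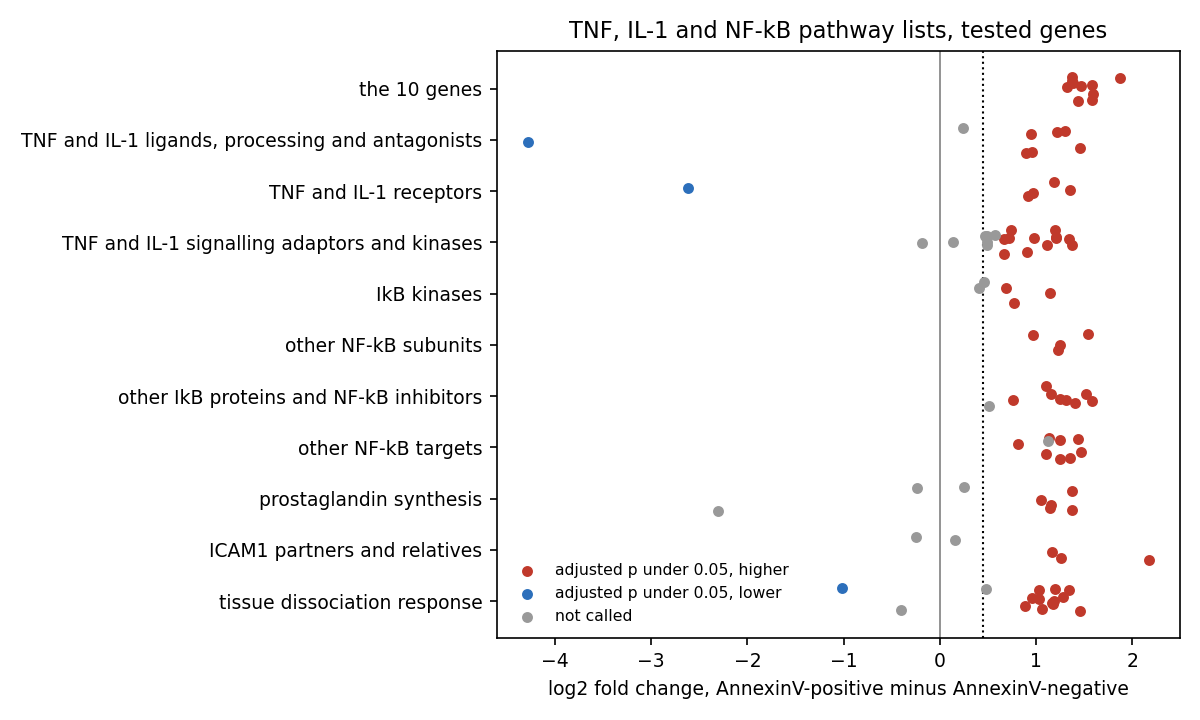
Log2 fold changes on the deposited scale of the 10 genes (top row) and of the tested genes of 10 further lists, 1 point a gene, red where called higher, blue where called lower and grey where not called; the dotted line is the median of all genes tested at 0.45, and the vertical scatter within a row has no meaning. The 10 genes lie between 1.32 and 1.87, and the blue points far left are Il33 and Il1rap.

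Among ligands and their processing, 6 of 8 tested genes were called higher and 1 lower. Casp1, the protease that matures IL-1 beta, was at 14.6 and 15.6 RPKM in AnnexinV-positive libraries, against 5.36 and 5.52 RPKM in AnnexinV-negative libraries (1.46, limma adjusted p 0.00222). The IL-1 receptor antagonist Il1rn rose by 1.30, and Tnfsf9, a costimulatory TNF family ligand, by 1.22. Il1b had 24.6 and 33.6 times the RPKM of Il1rn in AnnexinV-positive cells, against 23.9 and 23.7 times in AnnexinV-negative cells. Il33, an IL-1 family alarm cytokine that glia of the oligodendrocyte and astrocyte lineages are known to store, went the other way, at 0.431 and 0.334 RPKM in AnnexinV-positive libraries, against 13.5 and 6.34 RPKM in AnnexinV-negative libraries (-4.28, SE 0.36, limma adjusted p 6.73e-04).

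Of 5 tested receptors, 4 were called higher and 1 lower. The TNF receptors Tnfrsf1a and Tnfrsf1b rose by 1.19 and 1.35, and Ltbr, the lymphotoxin receptor, by 0.92. Il1rap, the accessory chain that IL-1 and IL-33 receptors share, was at 1.49 and 0.825 RPKM in AnnexinV-positive libraries, against 9.55 and 5.65 RPKM in AnnexinV-negative libraries (-2.62, SE 0.35, limma adjusted p 0.00305). Il1r1, the signalling IL-1 receptor, lay at 0.873 and 1.05 RPKM, against 0.771 and 0.817 RPKM in AnnexinV-negative libraries, and was not tested. Il33 and Il1rap were called lower on all 4 scales, beside the fall of the oligodendrocyte markers, whose part in them was not tested.

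Of 19 tested adaptors and kinases, 12 were called higher and none lower, with a median of 0.72. Birc3, an NF-kB-induced ubiquitin ligase of the TNF receptor complex, rose by 1.37, Traf5, an adaptor, by 1.34, and Map3k8, a kinase downstream of TNF and Toll-like receptors, by 1.21. Myd88, the adaptor of IL-1 receptors, was at 44.2 and 39.5 RPKM in AnnexinV-positive libraries, against 17.2 and 19.1 RPKM in AnnexinV-negative libraries, and was called higher. Of the 5 IkB kinases and relatives, Ikbke (1.14), Ikbkb (0.77) and Tbk1 (0.69) were called higher. Ikbkg (0.46, limma adjusted p 0.111) and Chuk (0.41, limma adjusted p 0.143) were not called. Centred on the microglia markers, Ikbkg (-0.71) and Chuk (-0.77) were called lower, as were 50.7% of all genes tested. All 4 other NF-kB subunits were called higher: Rel by 1.54, Nfkb2 by 1.25, Nfkb1 by 1.23 and Rela by 0.97. Rel had 35.5 and 22.03 RPKM in AnnexinV-positive libraries, against 7.20 and 12.7 RPKM in AnnexinV-negative libraries. None of these subunits was called with equal RPKM sums or centred on the microglia markers.

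Of 9 tested inhibitors, 8 were called higher. The IkB family members Nfkbie, Nfkbid and Nfkbib rose by 1.58, 1.52 and 1.31, and Zc3h12a, a ribonuclease that degrades inflammatory mRNAs, by 1.40. Nfkbid was at 172 and 175 RPKM in AnnexinV-positive libraries, against 53.7 and 67.8 RPKM in AnnexinV-negative libraries, the highest of this list and below Nfkbia in every library. Of 9 tested targets, 8 were called higher: Plau, a plasminogen activator, by 1.47, Cd83, a surface protein of activated myeloid cells, by 1.43, Gadd45b, a stress response gene, by 1.25, and Zfp36, which binds AU-rich elements and speeds mRNA decay, by 1.13. Il6, the target that was not called, was at 5.48 and 10.6 RPKM in AnnexinV-positive libraries, against 2.63 and 4.56 RPKM in AnnexinV-negative libraries (1.12, limma adjusted p 0.0502). Sele, Selp, Nos2 and Csf2 stayed at or under 0.239 RPKM in every library and were not tested.

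In the prostaglandin list 5 of 8 tested genes were called higher and none lower on the deposited scale. Hpgds, a prostaglandin D synthase, and Hpgd, which inactivates prostaglandins, rose by 1.37 each, Ptgs1 by 1.14 and Pla2g4a, the phospholipase that frees arachidonate, by 1.05. Ptgds, another prostaglandin D synthase, went the other way, at 8.72 and 1.63 RPKM in AnnexinV-positive libraries, against 36.0 and 10.3 RPKM in AnnexinV-negative libraries. Its log2 fold change was -2.31 (SE 0.81, limma adjusted p 0.0587). It was called lower with equal RPKM sums (-3.07, limma adjusted p 0.0393) and centred on the microglia markers (-3.48, limma adjusted p 0.024). Ptges, the inducible prostaglandin E synthase, was at 0.194 and 0.382 RPKM in AnnexinV-positive libraries, against 0.438 and 0.784 RPKM in AnnexinV-negative libraries, and was not tested. Among partners of Icam1, the integrin chains Itgax, Itgb2 and Itgam rose by 2.17, 1.26 and 1.17, and Itgax (0.99 centred on the microglia markers) was the 1 gene of the 103 called higher on that scale. Itgal, the lymphocyte partner of Icam1, was at 1.74 and 1.75 RPKM in AnnexinV-positive libraries, against 1.53 and 1.57 RPKM in AnnexinV-negative libraries. Itgal was not called on the deposited scale (limma adjusted p 0.564) and was called lower centred on the microglia markers (-1.02, limma adjusted p 0.0163).

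Enzymatic dissociation of brain tissue is known to induce immediate early genes and NF-kB targets in microglia, and all 4 libraries went through it. Of 15 genes of that response, all tested, 12 were called higher and 1 lower on the deposited scale, with a median of 1.06. With equal RPKM sums 1 was called higher and 2 lower (median 0.28), and centred on the microglia markers 3 were called lower (median -0.12). Ier5 rose by 1.46, Atf3 by 1.34 and Junb by 1.28, all immediate early genes. Nr4a1, another of them, was at 219 and 215 RPKM in AnnexinV-positive libraries, against 88.8 and 100.9 RPKM in AnnexinV-negative libraries, and was called higher, while Fos was at 358 and 387 RPKM in AnnexinV-positive libraries, against 269 and 265 RPKM in AnnexinV-negative libraries (0.48, limma adjusted p 0.0731). Centred on the microglia markers, Fos was called lower (-0.70, limma adjusted p 0.029). The heat shock gene Hspa1b was lower on the deposited scale (-1.02, limma adjusted p 0.0217). Summed over the list, the level was 1.96% and 1.88% of all RPKM in AnnexinV-positive libraries, against 1.48% and 1.67% in AnnexinV-negative libraries. The part of dissociation in the levels of the 10 genes was not tested, and there was no library of tissue that had not been dissociated.

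By likeness of pattern over the 4 libraries (Euclidean distance of centred log2 profiles to the median profile of the 10 genes, among 2384 other protein-coding genes with a mean of at least 10 RPKM), the nearest were Ctsc (0.111), Cd86 (0.118), Cd83 (0.118), Il10ra (0.122) and Gem (0.126). Cd83 was at 1210 and 1088 RPKM in AnnexinV-positive libraries, against 398 and 458 RPKM in AnnexinV-negative libraries, above every one of the 10 genes. Cd86, a costimulatory molecule, was at 42.3 and 36.8 RPKM in AnnexinV-positive libraries, against 12.7 and 14.2 RPKM in AnnexinV-negative libraries. With 4 libraries such a likeness rests largely on the difference between the groups.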

How the data were processed

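Bulk RNA-seq libraries (TruSeq RNA v2, which does not keep strand) of sorted corpus callosum cells were aligned with GSNAP to mm10, per the submitters' processing notes. No source used here names the counter, annotation or read filters. Each deposited table held 1 value per gene for 52636 Ensembl genes with no stated unit. The deposited values were read as RPKM that the authors had normalized: among low values (under 100 reads), 79.6% to 83.6% in a library came to whole reads within 0.01 when scaled by the exonic gene lengths of GENCODE M21. Symbols, lengths and coordinates came from GENCODE M21 (GRCm38, the assembly of mm10), which matched 52489 genes. The design named a count test for counts and limma for normalized values, so limma was used. Low genes were filtered out (kept: RPKM 1 or more in 2 libraries or more, 10927 genes). Differences of log2(RPKM + 0.1) were tested with limma 3.58.1 (R 4.3.3), fitting a trend of variance on intensity without covariates. Fold changes on this scale understate those of low genes. With 2 libraries a group the smallest p of an exact permutation test is 0.333, so none was run. The fit was tested on simulated data, where 12% of 100 2-fold changes and 81% of 100 4-fold changes were called. There were 4 false calls in the simulation. It changed 200 genes in random directions without an overall shift. In the data 3364 genes were called higher and 1012 lower, with a median log2 fold change of 0.45. The simulated rates therefore do not carry over to these data. A gene that was not called may still differ.

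Other scales, pseudocounts, filters, a replicate block and each library left out in turn were tried as alternatives. The microglia-centred scale subtracts from each library the mean log2 value of 14 microglia markers. The genes, lists and tests were chosen with earlier results of these data known. Named genes were the 10 members, the up to 4 genes of each list with the smallest p and every gene of a list called lower. The 5 genes of nearest pattern and the 2 highest markers of a list were also named. Chuk, Fos, Icam2, Il6, Il1r1, Itgal, Lta, Ltb, Ptges, Ptgds, Camp, Plac8 and the untested targets were chosen after their values were seen. Not every marker that the rule names is reported here.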

Additional observations from a re-analysis of the deposited data

How the results depend on the processing

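All 10 genes were higher in AnnexinV-positive cells under every alternative run, and none changed direction. The number called higher was 10 with a pseudocount of 0.01 or 1, the mean RPKM filter, the replicate block and the crossed block, 9 with no filter on low values (Ptgs2, limma adjusted p 0.0654) and 9 with median centring, but 5 with equal RPKM sums and 1 on the microglia-centred scale. Leaving out 1 library gave 9 to 10, with Ptgs2 lost without AnnexinV-positive replicate 1. Of the other pathway genes 65 were called higher, but 4 with equal RPKM sums and 1 microglia-centred, and 48 to 65 without 1 library. The 3 called lower became 8, 17, and 2 to 4. Over all genes tested, 3364 were called higher: 1865 with no filter, 1133 median-centred, 114 with equal RPKM sums, 13 microglia-centred, and 1297 to 3356 without 1 library (1749 and 1297 without AnnexinV-positive replicates 1 and 2). The 1012 called lower became 2489, 1184, 2104 and 5535 under the same settings, and 787 to 1060 without 1 library. The scales differ in the quantity each library is set equal on; with no filter, more genes entered the adjustment.

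Replicate numbers are shared between the groups, but no label says that they mark a pairing, and the deviations of same-numbered libraries from their group means had a weak negative correlation (r = -0.215 over 10927 genes). With the replicate block 2443 genes were called higher and 957 lower, 59 and 4 of the other pathway genes, and 10 of the 10 genes. A crossed pairing, chosen after seeing the data, called 4891 genes higher and 1136 lower. The standard errors of the 10 log2 fold changes were 0.18 to 0.34 at 2 libraries a group.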
